A study of Mus musculus with 7 samples.

Results

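The 42 genes described here drive or restrain cell division: the G1 cyclins and kinases, the machinery of DNA replication, the genes of G2 and mitosis, and inhibitors of the cyclin-dependent kinases (CDKs). They were taken by gene symbol from the platform annotation of a mouse liver array, and 39 of the 42 had at least 1 probe, out of 16468 named genes in all. Mki67, Ccnb1 and Aurkb had no probe under their symbol, so no expression value is given for them. The measured genes were 7 of G1, 13 of DNA replication (the S phase set), 16 of 19 listed for G2 and mitosis, and 3 CDK inhibitors.

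Liver RNA came from 7 mice. The transgenic group carried a transgene for Zfp90, a zinc finger protein, and held 1 female and 2 males. The wild-type group held their littermates, 1 female and 3 males. Each animal was set on a 2-colour array against 1 shared pool, made of liver RNA of 4 wild-type males and females. The promoter and structure of the transgene, the strain, and the age of the animals are not given in the sources used here. All values are log2 ratios of an animal to the pool, so a value of 0 is the level of the pool and a gene's level cannot be set against another gene's. Signal over background is unknown, and precision is limited by how few arrays there are. The labels do not say whether the pool was made from the wild-type animals on the arrays.

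Cell division runs through a G1 phase, in which D-type and E-type cyclins with their kinases release the E2F transcription factors. E2F then switches on the genes that copy DNA in S phase, and Cdk1 with the A-type and B-type cyclins carries the cell into mitosis. In adult liver most hepatocytes are quiescent and many are polyploid, they re-enter the cycle after tissue loss or injury, and resident macrophages, blood cells and endothelium can also divide. In bulk liver RNA, fewer dividing cells and less RNA per dividing cell cannot be told apart.

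The checks of the arrays bear on all values below. Zfp90 itself read 0.34 in the transgenic female and 0.58 and 0.45 in the transgenic males, against 0.37 for the wild-type female and -0.15, -0.29 and -0.11 in the wild-type males. Its difference in the model with sex was 0.48 ± 0.15 SE (limma, adjusted p = 0.678) and in the 5 males alone 0.69 ± 0.11 SE (adjusted p = 0.206). The array labelled as the wild-type female thus read like the transgenic animals for Zfp90, and values that use it take the label as given. Leaving out either female leaves a genotype difference that rests on the 5 males alone. The plot of fitted differences therefore shows each measured cell cycle gene in the males too, while the text gives the male difference for some genes only. A difference given without a male value uses both female arrays. The Y-linked Kdm5d lay at -2.54 in the transgenic female and -3.22 in the wild-type female and at 0.14 to 0.66 in the 5 males, so a positive value was taken as higher in the animal than in the pool. Uty, also Y-linked, read -0.06 in the transgenic female, -0.18 in the wild-type female and -0.02 to 0.15 in the males. Correlations between arrays over all probes ran from -0.50 (transgenic female with wild-type male 4) to 0.53. They were also under -0.3 for the wild-type female with wild-type males 3 and 2 (-0.36 and -0.31). The labels give the dyes of animal and pool but not how dye swaps were combined, so the direction rests on Kdm5d. Were the direction the opposite, all differences given here would turn their sign with the same p. Array medians lay between -0.01 and 0.03.

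None of the 39 genes passed the test between transgenic and wild-type liver. In the model with genotype and sex, limma called 0 of 39 members at an adjusted p of 0.05, where it called 0 of all 22218 features (0%). At an unadjusted p under 0.05 there were 2 members (5.13%), both higher, against 1536 features (6.91%, with 3.82% higher and 3.1% lower), so the members moved no more often than the array as a whole. The median difference of the members was 0.03, and that of all features -0.01. Single genes differed by -0.49 to 0.73, with standard errors of 0.08 to 0.35 and adjusted p of at least 0.704. The genotypes did not overlap, with the transgenic animals higher, in 1 member (2.56%, against 3.17% of all features) and with them lower in 0 (against 2.84%). The spread within the wild-type group, a median SD of 0.15 over members, was close to the 0.16 over all features.

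**Figure D1:**
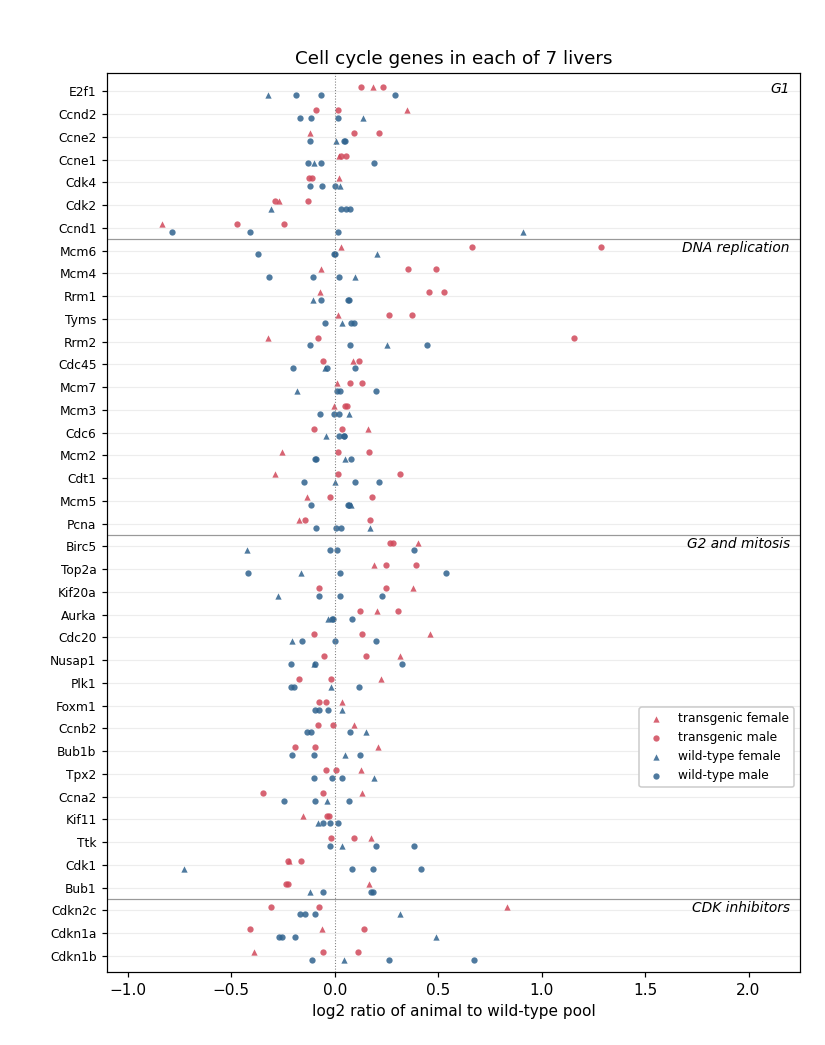
Log2 ratio to the wild-type pool (x axis) of each measured cell cycle gene (y axis) in each animal, with transgenic animals in red above wild-type animals in blue, females as triangles and males as circles. Within a set, genes run from the highest to the lowest fitted difference, and the transgenic males stand to the right in Mcm6, Mcm4, Rrm1 and Tyms, with Mcm6 at 1.29 and 0.66.

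DNA replication genes read highest in the transgenic males, where the median of the 13 genes was 0.12 and 0.17. It was -0.07 in the transgenic female, against 0.05 in the wild-type female and 0.01 to 0.02 in the wild-type males. Mcm6, a subunit of the ring-shaped MCM helicase that opens the double helix, read 0.03 in the transgenic female and 1.29 and 0.66 in the transgenic males, against 0.20 in the wild-type female and -0.37, -0.01 and -0.00033 in the wild-type males. Both transgenic males lay above every other animal, while the transgenic female lay inside the wild-type range. Transgenic animals averaged 0.66 ± 0.63 (SD, n = 3) and wild-type animals -0.04 ± 0.24 (SD, n = 4). The fitted difference of 0.73 ± 0.27 SE (1.65-fold) did not pass (adjusted p = 0.718). In the males alone it was 1.10 ± 0.22 SE (2.14-fold, adjusted p = 0.286).

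Mcm4, another subunit of the same helicase, also read highest in the transgenic males. It read -0.07 in the transgenic female and 0.49 and 0.35 in the transgenic males, against 0.10 in the wild-type female and -0.32, 0.02 and -0.11 in the wild-type males. The difference was 0.34 ± 0.16 SE over all animals (adjusted p = 0.732) and 0.56 ± 0.13 SE in the males (adjusted p = 0.396). The other 4 subunits lay closer to the pool, with male differences of 0.13 ± 0.12 SE (Mcm2), 0.08 ± 0.12 SE (Mcm5), 0.07 ± 0.10 SE (Mcm3) and 0.02 ± 0.11 SE (Mcm7). The 2 probes of Mcm3 went opposite ways over all animals, at 0.15 ± 0.09 SE and -0.10 ± 0.09 SE.

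Rrm1 and Tyms belong to the supply of deoxynucleotides. Rrm1, the large subunit of ribonucleotide reductase, read -0.07 in the transgenic female and 0.46 and 0.53 in the transgenic males, against -0.11 in the wild-type female and 0.07, -0.07 and 0.06 in the wild-type males. Its difference was 0.34 ± 0.11 SE over all animals (1.27-fold, adjusted p = 0.704), the smallest p of the 39 members, and 0.47 ± 0.11 SE in the males (adjusted p = 0.362). Tyms, the thymidylate synthase, read 0.01 in the transgenic female and 0.26 and 0.37 in the transgenic males, against 0.03 in the wild-type female and 0.09, -0.05 and 0.08 in the wild-type males. For both genes the transgenic males lay above all other animals and the 2 females lay within 0.04 of each other. Rrm2, the small subunit of the reductase, did not follow: transgenic male 2 read 1.15, transgenic male 1 read -0.08 and the transgenic female -0.32, against -0.12 to 0.44 in wild-type animals.

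The remaining DNA replication genes differed little. Cdc45, a partner of the helicase, differed by 0.10 ± 0.11 SE, and Pcna, the sliding clamp of the DNA polymerases, by -0.08 ± 0.12 SE with 2 probes that gave the same value. Cdc6 and Cdt1, which load the helicase onto origins, differed by 0.01 ± 0.10 and -0.0071 ± 0.14 SE. Of the 13 genes of the set, 10 had a positive difference over all animals (median 0.07) and 12 in the males (median 0.11), where the median of all features was -0.02. The directions of Cdt1 and Mcm5 turned under quantile normalization and in the males alone, that of Cdt1 also under median centring, that of Mcm2 without the sex term, and those of Cdc6 and Pcna in the males alone. Transgenic males lay above all wild-type males in 5 of 13 genes (38.5%, Mcm3, Mcm4, Mcm6, Rrm1 and Tyms), against 11.2% of all features, and below all of them in 0, against 11.4%. Mcm3 counts here only by the mean of its 2 probes. By 1 of them the transgenic males read -0.20 and -0.02, against 0.0053, -0.07 and -0.08 in the wild-type males. At an unadjusted p under 0.05 in the males there were 4 of 13, all higher (30.8%), against 3.92% of features higher. Over all 39 members there were 7 (17.9%, 4 higher and 3 lower), against 6.96% of features (3.04% lower), and limma called 0 of 39 members beside 7 of 22218 features (0.0315%). The 13 genes were measured in the same 5 animals and are not independent of each other.

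The promoters of these genes were set beside the values because S phase genes are known as E2F targets. RefSeq start sites (assembly GRCm38.p6) were matched for 33 of the 42 members by symbol, with 250 bases before and 50 after each start. The other 9 were Ccnd1, Ccnd2, Ccne2, Mcm4, Ccna2, Aurkb, Tpx2, Kif20a and Foxm1. An E2F site was searched as TTTCCCGC, TTTGGCGC, TTTCGCGC or TTTGCCGC on either strand, and was found for 6 of 12 DNA replication genes (50%), 1 of 14 genes of G2 and mitosis (7.14%), and 704 of all 27025 genes (2.6%). The promoters of Mcm6 and Rrm1, the genes with the largest difference and the smallest p, are shown as an example with and one without such a site. That of Mcm6 (chr1:128359656-128359955, minus strand) has its 3 E2F matches in capitals, which begin 110, 106 and 47 bases before the start, the first pair overlapping. It also has 2 CCAAT boxes, left in lower case, which begin 57 and 14 bases before the start. That of Rrm1 (chr7:102441445-102441744, plus strand) has 0 E2F matches, and its capitals mark 2 CCAAT boxes, which begin 91 and 45 bases before the start.
Mcm6: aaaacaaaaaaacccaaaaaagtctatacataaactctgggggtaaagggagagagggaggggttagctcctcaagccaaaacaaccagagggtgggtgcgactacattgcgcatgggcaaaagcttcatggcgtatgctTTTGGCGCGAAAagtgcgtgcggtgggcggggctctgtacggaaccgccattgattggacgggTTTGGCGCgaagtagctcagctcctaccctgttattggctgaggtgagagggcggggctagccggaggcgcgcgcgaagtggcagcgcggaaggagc
Rrm1: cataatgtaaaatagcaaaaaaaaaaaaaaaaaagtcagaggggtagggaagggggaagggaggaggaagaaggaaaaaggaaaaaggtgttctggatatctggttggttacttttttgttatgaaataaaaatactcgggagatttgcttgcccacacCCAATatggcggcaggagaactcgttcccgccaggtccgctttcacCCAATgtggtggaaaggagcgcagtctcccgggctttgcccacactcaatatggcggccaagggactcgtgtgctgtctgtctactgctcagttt

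A further list of the replication machinery split less clearly. Of 41 measured genes, 0 passed over all animals or in the males, 24 had a positive difference over all animals (median 0.03), and 22 in the males (median 0.03). Transgenic males lay above all wild-type males in 10 of 41 (24.4%, against 11.2%). The 3 with the smallest p were Pola1, the catalytic subunit of DNA polymerase alpha (0.67 ± 0.15 SE, adjusted p = 0.576), Prim2, a primase subunit (0.27 ± 0.10 SE), and Orc1, of the origin recognition complex (0.23 ± 0.09 SE). Pola1 read 0.61 in the transgenic female and 0.93 and 0.38 in the transgenic males, against -0.02 in the wild-type female and 0.00066, 0.07 and -0.19 in the wild-type males. The lowest transgenic animal exceeded the highest wild-type one, as also for Prim2, Orc1 and Chaf1a (4 of 41, 9.76%, against 3.17% of all features). In the males 4 of 41 had an unadjusted p under 0.05, all higher (9.76%, against 3.92%). Gins1, a helicase partner singled out after its values were seen, read -0.30 in the transgenic female and 0.43 and 0.54 in the transgenic males, against 0.11 in the wild-type female and between -0.08 and -0.06 in wild-type males.

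Genes of G2 and mitosis showed no shift as a set. Of 16 genes 8 lay higher and 8 lower in transgenic liver, the median difference was -0.0015, and 0 had an unadjusted p under 0.05 (0%, against 6.91%). Aurka, the kinase that builds the spindle poles, was the single member whose genotypes did not overlap. It read 0.20 in the transgenic female and 0.12 and 0.31 in the transgenic males, against -0.03 in the wild-type female and 0.08, -0.01 and -0.0076 in the wild-type males. The difference of 0.21 ± 0.09 SE (1.15-fold) did not pass (adjusted p = 0.723).

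Birc5, the survivin subunit of the chromosomal passenger complex, read 0.40 in the transgenic female and 0.28 and 0.27 in the transgenic males, against -0.43 in the wild-type female and 0.01, -0.02 and 0.38 in the wild-type males. The transgenic animals sat close together, and wild-type male 4 lay among them. The difference was 0.35 ± 0.16 SE over all animals (adjusted p = 0.734) and 0.15 ± 0.15 SE in the males. Top2a, the topoisomerase that untangles sister chromosomes, differed by 0.30 ± 0.21 SE, with wild-type animals spread from -0.42 to 0.54. Kif20a, a kinesin of cytokinesis, and Cdc20, an activator of the anaphase-promoting complex, differed by 0.21 ± 0.16 and 0.20 ± 0.16 SE over all animals. In the males alone they differed by 0.025 ± 0.15 and 0.0018 ± 0.14 SE, and between the females by 0.65 and 0.67. The values over all animals thus rested on the females.

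Cdk1, the kinase of mitotic entry, lay lower in the transgenic males. It read -0.22 in the transgenic female and -0.23 and -0.16 in the transgenic males, against -0.73 in the wild-type female and 0.08, 0.18 and 0.42 in the wild-type males. The male difference was -0.42 ± 0.13 SE (adjusted p = 0.543), and over all animals it was -0.15 ± 0.19 SE (adjusted p = 0.926). Bub1, a kinase of the spindle checkpoint, read 0.16 in the transgenic female and -0.23 and -0.24 in the transgenic males, against -0.12 in the wild-type female and -0.06, 0.17 and 0.18 in the wild-type males. In both genes the transgenic males lay below all wild-type males (2 of 16, 12.5%, against 11.4%), and the females went the other way. The other mitotic genes had differences between -0.07 (Ttk, a checkpoint kinase) and 0.15 (Nusap1, a spindle protein) over all animals, among them the cyclins Ccna2 (-0.03) and Ccnb2 (-0.0081), the kinase Plk1 (0.07), the spindle proteins Tpx2 (-0.01) and Kif11 (-0.03), the checkpoint gene Bub1b (-0.01) and the mitotic transcription factor Foxm1 (0.0050). Foxm1 was the steadiest member, with all 7 animals within 0.13 of each other.

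Promoters of mitotic genes are known for a CHR element (cell cycle genes homology region) with CCAAT boxes, which bind the factor NF-Y, upstream of it. The CHR element was searched as TTTGAA or TTCGAA and the box as CCAAT, on either strand. The CHR element was found for 11 of 14 genes of G2 and mitosis (78.6%), 3 of 12 of DNA replication (25%) and 21.7% of all genes, and the CCAAT box for 12 of 14 (85.7%), 9 of 12 (75%) and 41.1%. In 1 member promoter, matches of different motifs shared bases. Aurka, with no overlap between genotypes, and Cdk1, lower in transgenic males, are shown with both elements in capitals. In Aurka (chr2:172370521-172370820, minus strand) the CCAAT boxes begin 51 and 19 bases before the start and the CHR match 32 bases after it. In Cdk1 (chr10:69352863-69353162, minus strand) the boxes begin 208, 80 and 48 bases and the CHR matches 71 and 15 bases before the start. The Cdk1 promoter also has 1 E2F match, left in lower case, which begins 131 bases before the start. A match is a run of letters, and binding was not measured.
Aurka: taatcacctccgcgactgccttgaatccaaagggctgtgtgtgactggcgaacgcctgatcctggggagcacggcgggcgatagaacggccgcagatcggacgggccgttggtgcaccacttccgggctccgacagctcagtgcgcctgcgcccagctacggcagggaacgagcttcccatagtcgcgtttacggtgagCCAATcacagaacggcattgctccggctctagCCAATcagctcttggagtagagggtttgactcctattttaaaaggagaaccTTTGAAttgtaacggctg
Cdk1: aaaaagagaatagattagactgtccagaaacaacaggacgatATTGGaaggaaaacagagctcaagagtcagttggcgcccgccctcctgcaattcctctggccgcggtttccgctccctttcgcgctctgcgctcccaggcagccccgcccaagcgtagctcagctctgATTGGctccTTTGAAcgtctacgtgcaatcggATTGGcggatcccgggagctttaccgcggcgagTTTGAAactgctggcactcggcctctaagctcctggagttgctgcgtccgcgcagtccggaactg

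**Figure D2:**
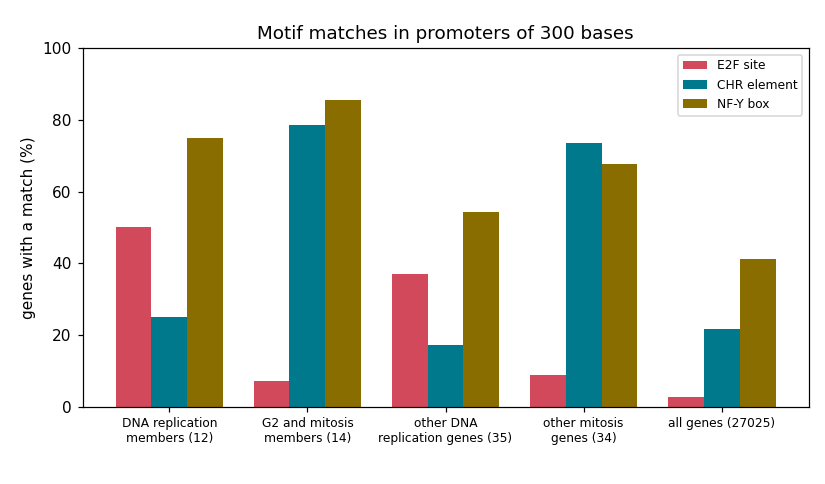
Percent of genes (y axis) with a match to the E2F site, the CHR element or the NF-Y box in a promoter of 300 bases, for the 12 DNA replication and 14 mitotic members, the further lists of replication and mitosis genes, and all 27025 genes, with the number of genes in brackets. E2F matches reach 50% in the DNA replication members and CHR matches 78.6% in the mitotic members, against 2.6% and 21.7% of all genes.

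A further list of mitotic genes had 38 measured genes, of which 26 lay higher in transgenic liver (median 0.06) and 0 passed. Its smallest p belonged to Cdca8, another passenger complex subunit (0.41 ± 0.13 SE, adjusted p = 0.699), Cks2, a CDK-binding protein (0.36 ± 0.14 SE), and Cenpe, a kinetochore kinesin (0.26 ± 0.10 SE). Incenp and Cdc25b lay without overlap above the wild-type animals (2 of 38, 5.26%, against 3.17%). Nek2, a centrosome kinase singled out after its values were seen, also read lowest in the wild-type female and below all wild-type males in the transgenic ones: it was -0.66 in the transgenic female and -0.33 and -0.17 in the transgenic males, against -1.17 in the wild-type female and 0.26 to 0.39 in the wild-type males.

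Cyclins and kinases of G1 did not pass either. E2f1, the transcription factor of the S phase programme, read 0.18 in the transgenic female and 0.23 and 0.12 in the transgenic males, against -0.33 in the wild-type female and -0.06, 0.29 and -0.19 in the wild-type males. The 3 transgenic animals lay within 0.11 of each other and wild-type male 3 above them, with a difference of 0.27 ± 0.14 SE (adjusted p = 0.75). Cdk2, the partner of E-type cyclins, lay below all wild-type males in both transgenic males (male difference -0.26 ± 0.10 SE, adjusted p = 0.701). The wild-type female (-0.31) lay lower still. Such a gap was seen in 1 of 7 G1 members (14.3%, against 11.4% of all features). In 1 of 7, Ccne2, both transgenic males lay above all wild-type males (14.3%, against 11.2%), with a male difference of 0.16 ± 0.11 SE. Over all animals, the E-type cyclins Ccne1 and Ccne2 differed by 0.07 ± 0.10 and 0.08 ± 0.10 SE, and the D-type cyclin Ccnd2 by 0.10 ± 0.09 SE. Cdk4, the kinase of D-type cyclins, differed by -0.04 ± 0.08 SE, with 3 probes at -0.01, -0.05 and -0.07.

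Ccnd1, the main D-type cyclin of hepatocytes, had the widest spread of all 39 members. It read -0.84 in the transgenic female and -0.24 and -0.47 in the transgenic males, against 0.91 in the wild-type female and -0.41, -0.78 and 0.02 in the wild-type males. Its difference of -0.49 ± 0.35 SE (adjusted p = 0.819) was 0.04 ± 0.23 SE in the males alone, so the value over all animals rested on the females.

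In a further list of G1 control genes, 18 of 23 measured genes lay lower in transgenic liver (median -0.10, against -0.01 of all features), and 0 passed. Rb1, the retinoblastoma protein that holds E2F in check, read -0.36 in the transgenic female and -0.27 and -0.07 in the transgenic males, against 0.00033 in the wild-type female and 0.04, -0.04 and 0.17 in the wild-type males (difference -0.26 ± 0.10 SE, adjusted p = 0.718). Rb1, Cdk6 and Tfdp1 lay below all wild-type animals without overlap (3 of 23, against 2.84% of features). For Cdk6 the gap was narrow, with the highest transgenic animal at -0.034 and the lowest wild-type one at -0.029. For Tfdp1 these animals were at -0.074 and -0.062. The differences of Cdk6 and Tfdp1 were -0.06 ± 0.08 and -0.10 ± 0.09 SE (adjusted p = 0.942 and 0.866). Ccnh, a subunit of the CDK-activating kinase, differed by 0.26 ± 0.12 SE. Cdkn2a, which encodes the inhibitor p16INK4a and the p53 activator ARF, read -2.02 in the transgenic female and -0.31 and 0.45 in the transgenic males, against 1.22 in the wild-type female and between 0.31 and 0.55 in wild-type males. Its difference of -1.21 ± 0.51 SE (adjusted p = 0.721) was -0.37 ± 0.22 SE in the males.

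None of the 3 CDK inhibitors among the members passed, and their median SD was 0.28 over transgenic and 0.34 over wild-type animals, against 0.14 and 0.16 over all features. Cdkn1b (p27) differed by -0.30 ± 0.18 SE (adjusted p = 0.781), at -0.39 in the transgenic female and -0.06 and 0.11 in the transgenic males, against 0.05 in the wild-type female and 0.26, -0.11 and 0.67 in the wild-type males. Cdkn1a (p21), the inhibitor induced by p53, differed by -0.09 ± 0.17 SE, with the wild-type female at 0.49 and the wild-type males at -0.27 to -0.19. Cdkn1a read -0.06 in the transgenic female and -0.41 and 0.14 in the transgenic males, so that transgenic male 1 lay below every wild-type animal. Cdkn2c (p18INK4c) differed by 0.11 ± 0.13 SE between genotypes and is described with the sexes below.

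**Figure D3:**
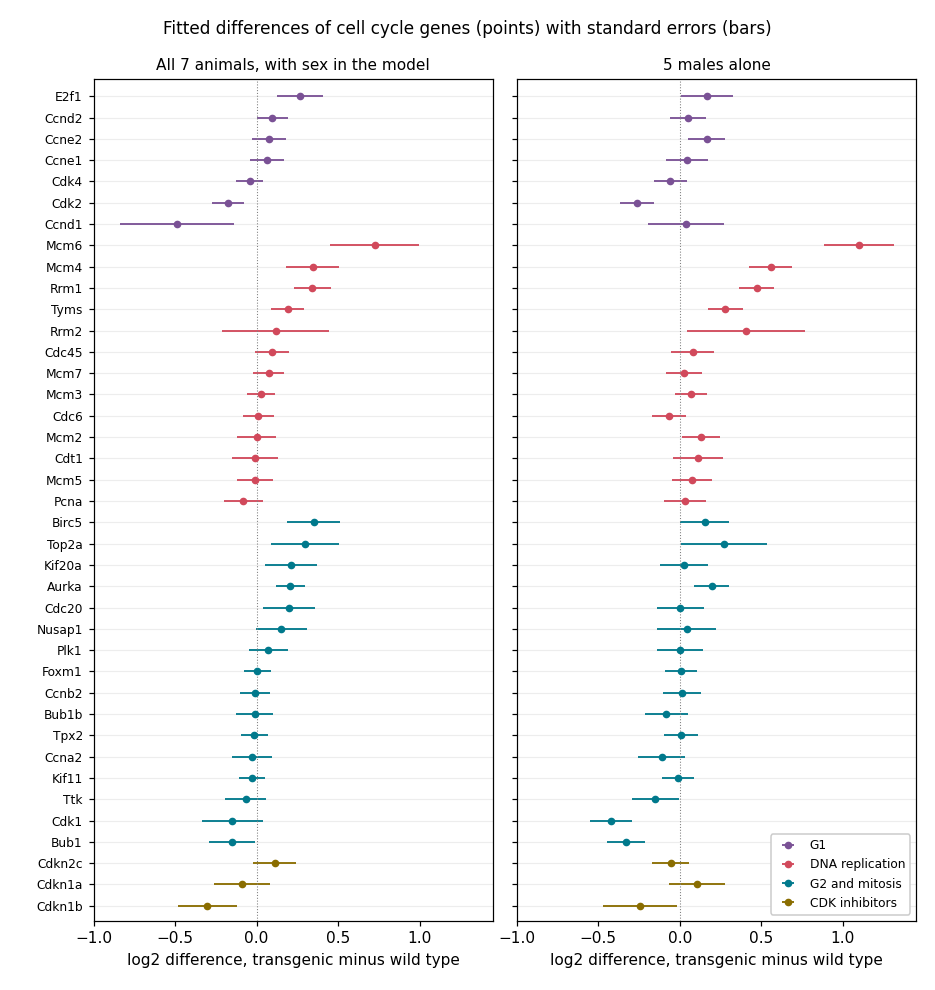
Fitted log2 difference, transgenic minus wild type (x axis), of each measured cell cycle gene with its standard error (bar), over all 7 animals with sex in the model (left) and in the 5 males alone (right), coloured by set. Mcm6 stands highest in both panels, at 0.73 and 1.10, and Cdk1 lowest in the males at -0.42.

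The genotype difference was then compared between the sexes, with 1 female per genotype. The interaction of genotype and sex passed in 0 of 39 members (limma, adjusted p of at least 0.348), against 16 of all features (0.072%). At an unadjusted p under 0.05 there were 8 members (20.5%), against 8.42% of features (3.93% positive and 4.49% negative): Ccnd1, Mcm6, Mcm4, Birc5, Cdc20, Bub1, Cdk1 and Cdkn2c. In the females, 13 of 16 genes of G2 and mitosis were higher in the transgenic animal (median 0.24), while 9 of 13 DNA replication genes were lower (median -0.16). The median of all features between the 2 females was 0.02. In the males the same medians were 0.0043 and 0.11. Over the interaction itself, DNA replication genes had a median of -0.38 and genes of G2 and mitosis one of 0.26, against 0.02 over all features. These values between the females rest on 1 array each, and the array labelled wild-type female is the one that read like transgenic animals for Zfp90.

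**Figure D4:**
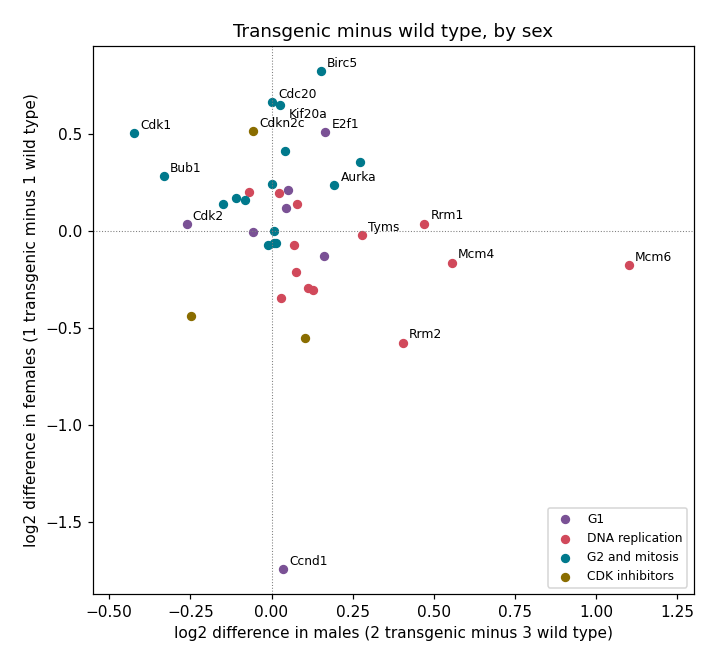
Log2 difference, transgenic minus wild type, in males (x axis, 2 animals against 3) and in females (y axis, 1 animal against 1) for the 39 measured cell cycle genes, coloured by set. DNA replication genes spread to the right, up to 1.10 for Mcm6, mitotic genes spread upwards, up to 0.83 for Birc5, and Ccnd1 lies lowest at -1.75 in the females.

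Between females and males, limma called 0 of 39 members, against 78 of 22218 features (0.351%). At an unadjusted p under 0.05 there were 4 members (10.3%, 2 higher and 2 lower), against 9.23% of features (3.65% higher and 5.57% lower). Cdkn2c, an inhibitor of Cdk4 and Cdk6, read 0.83 and 0.32 in the transgenic and wild-type females, against -0.31 to -0.08 in the 5 males. Both females lay above all males, and the difference of 0.72 ± 0.15 SE did not pass (adjusted p = 0.141). Ccnd2 read 0.35 and 0.14 in the females, against -0.17 to 0.02 in the males (0.30 ± 0.10 SE, adjusted p = 0.417). The differences of Cdk1 (-0.52 ± 0.20 SE, adjusted p = 0.499) and Rrm1 (-0.33 ± 0.12 SE, adjusted p = 0.464) were negative. For Cdk1 the transgenic female (-0.22) lay between the transgenic males (-0.23 and -0.16), so its difference rested on the wild-type female (-0.73). Leaving out 1 animal gave -0.96 to -0.03 for Cdk1 and -0.56 to -0.13 for Rrm1. Females lay above all males in 6 members (15.4%, against 6.04% of features: Cdk4, Ccnd2, Ccnb2, Tpx2, Foxm1 and Cdkn2c) and below all males in 2 (5.13%, against 6.83%: Rrm1 and Kif11). Cdk4 counts here by the mean of its 3 probes. By 1 of them the wild-type female was at -0.01 and wild-type male 3 at 0.05. By another the transgenic female was at -0.05 and wild-type male 3 at -0.02.

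Markers of other dividing or infiltrating cells were read beside these genes. The 11 measured markers of Kupffer cells and macrophages had array medians of 0.43 in the transgenic female and 0.33 and 0.19 in the transgenic males, against 0.82 in the wild-type female and -0.68, -0.67 and -0.13 in the wild-type males. Among males, 8 of the 11 had an unadjusted p under 0.05, all higher in transgenic animals (72.7%, against 3.92%). Over all animals and in the males, limma called 0 of the 11. The smallest p over all animals belonged to Cd163 (1.16 ± 0.19 SE, limma, adjusted p = 0.475) and Marco (1.12 ± 0.33 SE, adjusted p = 0.677). Cd163 differed by 1.18 in the males and by 1.10 between the females. Marco differed by 1.65 in the males and by -0.13 between the females, so its value over all animals rested on the males. Of the 11 macrophage markers, 9 had a positive difference in the males, as Mcm6, Mcm4, Rrm1 and Tyms did. Between the females, 7 of 11 markers were lower in the transgenic animal (median -0.27), where Mcm6 differed by -0.18, Mcm4 by -0.16, Tyms by -0.02 and Rrm1 by 0.04. The part of the macrophage markers in the replication gene values was not tested. Medians of the genotype difference were 0.02 for 9 hepatocyte, 0.02 for 10 lymphocyte, -0.04 for 6 neutrophil, 0.15 for 6 erythroid, 0.04 for 8 endothelial, 0.06 for 7 stellate cell and 0.09 for 5 bile duct markers, with 0 called in each list. The smallest p among them belonged to Cps1 (0.59 ± 0.11 SE) and Apob (-0.43 ± 0.14 SE) in hepatocytes and Pdgfrb (0.38 ± 0.11 SE) and Reln (-0.32 ± 0.12 SE) in stellate cells. In the other lists the pairs with the smallest p, Gzma and Cd4, Elane and Ltf, Hba-a1 and Hbb-b1, Lyve1 and Kdr, and Krt7 and Sox9, differed by -0.33 to 0.40. Ratios to the pool do not show whether a marker was expressed at all.

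**Figure D5:**
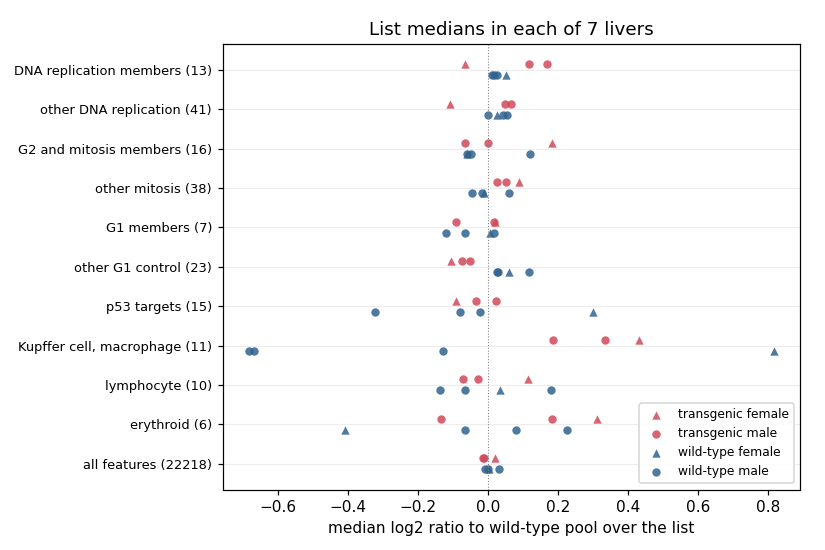
Median log2 ratio to the wild-type pool over each list (x axis) in each animal, for sets of cell cycle genes, p53 targets, markers of 3 other cell types and all features (y axis, number of measured genes in brackets), with transgenic animals in red above wild-type animals in blue. The medians of the 6 cell cycle lists drawn, which leave out the 3 CDK inhibitors, stay between -0.12 and 0.18, and the macrophage medians range from -0.68 to 0.82.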

How the data were processed

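Per the labels, RNA of each animal (Cy5) and of a wild-type liver pool (Cy3) was labelled with an aminoallyl amplification kit and hybridised together, with dye swaps. The authors deposited log10 ratios, 1 for each of 23574 probes in each animal, ending at -2 and 2 (100-fold) with 0 missing values. Log base and direction were read from the values. Background correction, normalization, centring and how swaps were combined are not given in the sources used here.

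Here they were put on the log2 scale (factor 3.32). The platform annotation from GEO gave 17824 probes 1 gene symbol, 50 several and 5700 none, and 0 symbols needed an update by gene number. Probes of a gene were averaged (3 members had more than 1), giving 22218 features. Differences were fitted with limma 3.58.1 (R 4.3.3), lmFit and eBayes, with genotype and sex over all 7 arrays, with their interaction in a model of its own, and in the 5 males alone. Adjusted p is Benjamini-Hochberg over all features. The fit was also run on simulated data. That outcome is not given here, so the size of change the fit could detect is not stated. Animals of 1 group are separate mice.

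The members and gene lists were chosen with earlier results of these data known. Genes named in full were the 6 members with the smallest p between genotypes, the 4 between sexes, those without overlap, 3 per further list and 2 macrophage markers. Others were named for their role, and Gins1, Nek2 and Phlda3 after their values were seen. Tyms, Bub1, Ccnd1 and Cdkn1b are given for every animal although this rule does not reach them. Tyms, Bub1 and Cdk2, described by their values in the males, had an unadjusted limma p under 0.05 there. Alternatives were no sex term, males alone, median centring, quantile normalization, robust eBayes, unaveraged probes, features with a gene name, a filter that kept the 50% of features whose ratios lay farthest from 0 on average, and removal of each animal.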

Additional observations from a re-analysis of the deposited data

Results flagged for a closer look

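Among 52 genes (the 39 members, 3 of each further cell cycle or p53 list, and Zfp90), 4 had 1 of the 4 animals labelled wild type apart from the others by Dixon's criterion, which sets the gap to the nearest animal against the range of the group. Chance flags about 1 gene in 20. The array labelled wild-type female stood apart for 3 of them: Cdk2 at -0.31, where the wild-type males read 0.03 to 0.07, Cdkn1a at 0.49, where they read -0.27 to -0.19, and Cdkn2c at 0.32, where they read -0.17 to -0.10. This array is also the single female of its group, so label, sex and animal cannot be told apart. For Mcm5, wild-type male 4 read -0.12 and the other 3 animals 0.06 to 0.08. The genotype difference by sex passed the threshold in 0 of these genes.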

How the results depend on the processing

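No member passed the threshold between genotypes, between sexes or in the interaction under any alternative run. Calls over all features between genotypes were 0, against 7 in the 5 males alone and 4 with the 50% of features of largest mean ratio, and 0 to 7 when 1 animal was left out (7 without either female). Calls between sexes were 78, against 47 under quantile normalization and 162 with the 50% of features, and 36 to 254 when 1 animal was left out (254 with the transgenic female removed, 45 with transgenic male 2 removed, 36 with the wild-type female removed, and 39 and 48 with wild-type males 2 and 4 removed).

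The median of the G1 set was 0.07, against -0.0088 with single probes and -0.17 with the 50% of features (3 genes), and 0.01 to 0.07 leaving out 1 animal. That of DNA replication was 0.07, against 0.34 with the 50% of features (5 genes), and 0.02 to 0.11 leaving out 1 animal. That of G2 and mitosis was -0.0015, against 0.11 with the 50% of features (10 genes), and -0.01 to 0.07 leaving out 1 animal. The filter chose features by the size of the same ratios, with those of the transgenic animals included. Genes with large ratios in those animals were thus more likely to be kept. The medians with the 50% of features, and the calls with them given above, therefore cannot show how far the results depend on processing. Apart from this choice and the smaller numbers of genes and animals, the cause was not tested.

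Of 39 members, 23 kept their direction under all of the 15 alternatives that gave them a value and 16 did not. In the males alone it turned for Ccnd1 (0.035), Cdc6 (-0.068), Cdt1 (0.11), Mcm5 (0.075), Pcna (0.030), Ccnb2 (0.013), Tpx2 (0.0084), Cdkn1a (0.10) and Cdkn2c (-0.057). Without the sex term it turned for Mcm2 (-0.0088), Ccnb2 (0.0066), Bub1b (0.0079) and Tpx2 (0.0023), under median centring for Cdt1 (0.00099) and Ccnb2 (4.9e-05), and under quantile normalization for Cdt1 (0.070), Mcm5 (0.0039), Ccnb2 (0.011) and Kif11 (0.0088). Leaving out 1 animal gave ranges through 0 for Ccnd1 (-0.75 to 0.035), Cdc6 (-0.068 to 0.082), Cdt1 (-0.14 to 0.11), Mcm2 (-0.089 to 0.13), Mcm5 (-0.10 to 0.075), Pcna (-0.21 to 0.030), Rrm2 (-0.36 to 0.41), Ccna2 (-0.11 to 0.089), Ccnb2 (-0.038 to 0.033), Bub1b (-0.082 to 0.060), Ttk (-0.15 to 0.011), Tpx2 (-0.040 to 0.0084), Foxm1 (-0.0058 to 0.016), Cdkn1a (-0.32 to 0.10) and Cdkn2c (-0.057 to 0.24). No paired analysis was possible because the replicate numbers run within sex and the groups share fewer than 2 of them.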

Other observations

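Targets of p53, the factor that halts the cycle through Cdkn1a, were read as a further list. Of 15 measured genes, 10 were lower in transgenic liver over all animals (median -0.03) and 0 passed. The array medians were -0.09 in the transgenic female and -0.04 and 0.02 in the transgenic males, against 0.30 in the wild-type female and -0.08, -0.32 and -0.02 in the wild-type males. In the females 12 of 15 were lower in the transgenic animal (median -0.33), against a median of 0.02 over all features, and in the males 8 of 15 were higher (median 0.07, against -0.02 over all features). The values between the females rest on 1 array each, and the array labelled wild-type female is the one whose median stands highest. Plk2, a kinase of the Polo family, differed by -0.60 ± 0.23 SE over all animals (adjusted p = 0.72), Btg2, an antiproliferative gene, by -0.58 ± 0.30 SE, and Fas, the death receptor, by 0.23 ± 0.12 SE.

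Btg2 read -0.51 in the transgenic female and -0.51 and -0.86 in the transgenic males, against 1.15 in the wild-type female and -0.68, -0.75 and -0.24 in the wild-type males, so its difference over all animals rested on the wild-type female and was -0.13 ± 0.19 SE in the males. Phlda3, a p53 target that restrains Akt signalling, differed by 0.55 ± 0.10 SE in the males (adjusted p = 0.246) and by -1.11 between the females. Its interaction of genotype and sex did not pass (adjusted p = 0.0683).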
